A study of Mus musculus with 26 samples.

Results

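The lungs of mice given the low dose of the carbon nanotube NM-401 were compared with the lungs of mice given the same dose of the nanotube Mitsui XNRi-7. The arrays were chosen by their labels alone: 5 arrays of NM-401 and 6 of Mitsui, 11 of the 26 arrays in the series. These are 10 of 25 animals, 5 for each material, because Mitsui animal 5 was hybridised on 2 arrays, which were averaged. All were MutaMouse animals, a transgenic strain used to count mutations in tissue DNA, aged about 12 weeks. Each received 42.7 µg per mouse once a week for 4 weeks by instillation into the trachea, with the nanotubes suspended in mouse serum, and tissue was collected 56 days after the last dose. Whether the dose is per instillation or in total is not stated in the labels. The sample labels call the animals female and the design text calls them male. Controls (5 animals) are described as a vehicle group in one place and as given olive oil by gavage in another, so the controls serve here only as a reference level. The high-dose groups (128 µg per mouse, 5 animals for each material, otherwise treated alike) are used as other animals in which the same material difference could be read. RNA came from random sections of frozen lung, and nothing in the labels gives the time of day at which an animal was killed.

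Multiwalled carbon nanotubes are stacked tubes of graphite sheet. Both materials are known as long, straight and stiff types, which macrophages cannot fully engulf or clear, and such fibres stay in the lung for months. The known response of the lung includes foamy macrophages that take up debris and lipid, acute phase proteins made in the tissue, chemokines that draw in neutrophils and monocytes, mucus cells in the airways, and scarring. The series title names genotoxicity, and the comparison at the low dose asks whether lungs given these nanotubes at an equal mass differed in gene expression.

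Each value is a log2 ratio, of the lung RNA of 1 animal (Cy5) over a universal mouse reference RNA (Cy3), so levels can be compared between animals and not between genes. Differences are given as NM-401 minus Mitsui on the log2 scale, ± the standard error (SE) from a limma fit with 5 animals a side. Genes were called at a Benjamini-Hochberg adjusted p under 0.05 over all features. On the low-dose arrays 46.7% to 60.3% of probes read well above background in Cy5. The tissue read as lung in both groups: Sftpc, the surfactant protein of alveolar type 2 cells, lay between 7.68 and 8.15 with NM-401 and between 7.83 and 8.33 with Mitsui, and Ager of alveolar type 1 cells between 5.55 and 5.69 and between 5.67 and 5.99. The 11 arrays lay on all 4 slides, with both materials on each. Mitsui animal 5 was on slides 3 and 4, and slide 4 held 1 low-dose array of each material. Values within slides 3 and 4 are therefore not from separate animals.

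No gene was called between the materials at the low dose. Of 22963 features, 14851 of them with a gene symbol, 0 passed (0% of all features), and the smallest adjusted p by limma was 0.0818. Under 3 of 24 other settings 1 or 2 genes were called: Manf from the scanner's own ratios, Dbp in a fit of the 10 low-dose animals alone, and Manf and Hspa5 with array weights. At an unadjusted p under 0.05 there were 1286 features (5.6% of those tested), 712 of them higher with NM-401 (3.1%) and 574 lower (2.5%). The 2 sets of 5 animals did not overlap in 290 features (1.26%), with all NM-401 animals above in 175 (0.762%) and below in 115 (0.501%). In the same fit 3888 features (16.9%) were called between NM-401 and control and 4809 (20.9%) between Mitsui and control. Those comparisons share the control animals.

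The absence of calls is bounded by the precision. The median SE of a difference was 0.0951, and the median 95% interval reached 0.196 on either side. The whole interval lay within 2-fold in either direction for 98.1% of features and within 1.5-fold for 92.4%. A mean difference of at least 1.5-fold was seen for 157 features (0.684%), none of them called. For the repeated Mitsui animal, the 2 arrays, on slides 3 and 4, differed by a median of 0.172 over features, against 0.144 between different Mitsui animals. The second value uses the mean of the 2 arrays for animal 5, so the values are not like for like. The 2 arrays had a correlation of 0.967, and other pairs of arrays within a group 0.929 to 0.973. At the high dose, where no animal is shared, 182 features (0.793%) were called between the materials, 106 higher and 76 lower with NM-401, and the groups did not overlap in 2.67%. Over all features the sign of the difference was the same at both doses in 48.6%.

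The response panel is a set of 28 genes that earlier results of these data had shown to move with the nanotubes, and 27 of them were measured. None was called between the materials at the low dose. Of the 27, 26 were called against control in each material, where 16.9% (NM-401) and 20.9% (Mitsui) of all features were. That count follows from how the panel was chosen and is no separate result. The median difference over the panel was -0.24, with 19 members below 0 and 8 above, against a median of 0.00 over all features. Its size rests on single animals: it was -0.0657 without NM-401 animal 1, -0.102 without NM-401 animal 4 and -0.123 without Mitsui animal 5. Averaged over the panel, the animals given NM-401 stood at 1.24, 2.01, 1.80, 1.08 and 1.71, and those given Mitsui at 1.79, 1.43, 1.76, 1.82 and 1.85. Controls lay between -0.58 and -0.52. The NM-401 animals were more spread (SD 0.39 against 0.17), with animals 1 and 4 lowest and animal 2 above every Mitsui animal. Within slides the panel median was -0.63, -0.12, 0.14 and -0.06 on slides 1 to 4, where slide 1 holds NM-401 animal 4.

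**Figure D1:**
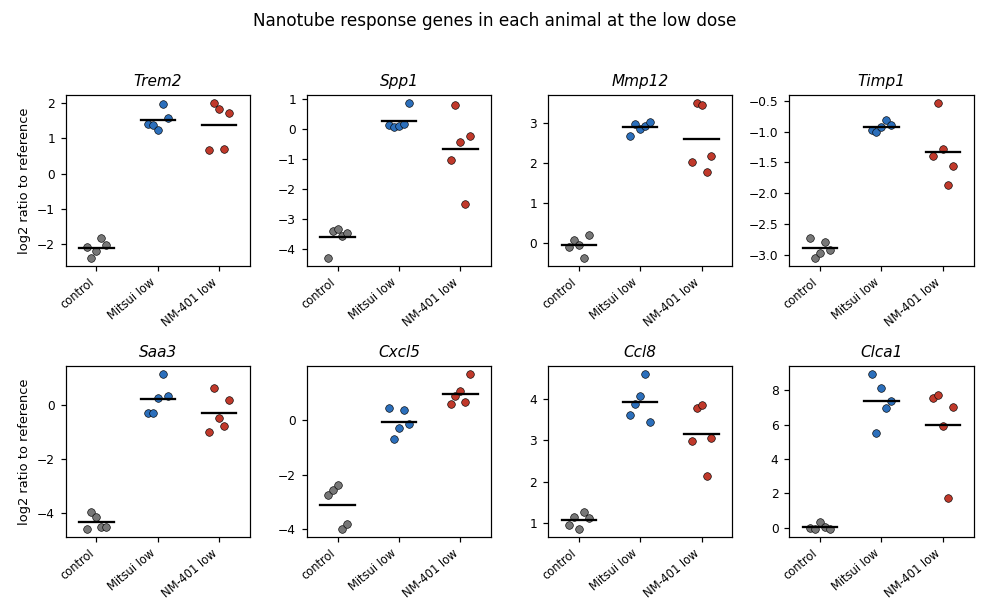
Log2 ratio of lung RNA to reference RNA (vertical axes, each with its own range) for 8 response genes in each of 5 control, 5 Mitsui low and 5 NM-401 low animals; points are animals and bars are group means. Both exposed groups stand away from control in every gene shown, while the exposed groups overlap except in Cxcl5.

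Macrophage genes of the panel had wide intervals around small differences. Trem2, a lipid-sensing receptor of macrophages, read 0.68, 2.00, 1.84, 0.69 and 1.72 in the NM-401 animals and 1.40, 1.39, 1.24, 1.98 and 1.59 in the Mitsui animals. The Mitsui values lay inside the range of the NM-401 values, and the difference was -0.13 ± 0.29 (95% interval -0.72 to 0.46). Gpnmb, a glycoprotein of lipid-laden macrophages, had a difference of -0.29 ± 0.35 (interval -1.0 to 0.43). Mmp12, the macrophage elastase, read 2.03, 3.49, 3.44, 1.78 and 2.18 with NM-401 and 2.68 to 3.01 with Mitsui, a difference of -0.30 ± 0.26 (interval -0.84 to 0.23). Igf1, a growth factor made by macrophages, differed by -0.24 ± 0.25 (-0.75 to 0.28), Arg1, the arginase of alternative activation, by -0.02 ± 0.29 (-0.61 to 0.58) and the lipopolysaccharide co-receptor Cd14 by -0.01 ± 0.19 (-0.41 to 0.39).

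Spp1 encodes osteopontin, a secreted protein of macrophages. It read -1.03, 0.79, -0.42, -2.51 and -0.23 in the NM-401 animals and 0.12, 0.05, 0.11, 0.16 and 0.86 in the Mitsui animals, against -4.30 to -3.33 in controls. NM-401 animal 2 lay among the Mitsui animals and the other 4 below all of them. The difference was -0.94 ± 0.40 (interval -1.76 to -0.12, adjusted p = 0.812 by limma). Without NM-401 animal 4 it was -0.484, so the size rests in part on that mouse. In the wider list of genes of lysosomes and foamy macrophages, 31 of 32 were measured, 29 of the 31 differences were below 0, the median was -0.16, and 2 members were at an unadjusted p under 0.05. That median was -0.0503 without NM-401 animal 4, -0.0916 without animal 1 and -0.251 without animal 2. Its largest difference after Spp1 was that of Lpl, lipoprotein lipase, at -0.42 ± 0.21. At the high dose the same list had a median of 0.41.

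Genes for secreted inflammatory signals included the panel's only member whose groups did not overlap. Cxcl5, a neutrophil chemokine, read 0.57, 0.86, 1.05, 0.65 and 1.67 with NM-401 and 0.45, -0.71, -0.31, 0.36 and -0.14 with Mitsui. All 5 NM-401 animals were above all 5 Mitsui animals, a difference of 1.03 ± 0.39 (interval 0.22 to 1.83, adjusted p = 0.758 by limma). In the high-dose animals, where it was called, the difference was 1.63 ± 0.39 (adjusted p = 0.0477). Ccl8, which attracts monocytes and eosinophils, read 2.97, 3.78, 3.85, 2.13 and 3.06 with NM-401 and 3.61, 3.87, 4.07, 4.60 and 3.43 with Mitsui. The groups overlapped, with a difference of -0.76 ± 0.27 (interval -1.32 to -0.20) and 0.17 at the high dose.

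Among the other signals, the monocyte chemokines Ccl2 and Ccl7 differed by -0.25 ± 0.38 (-1.03 to 0.53) and -0.13 ± 0.43 (-1.02 to 0.76). The cytokine Il6 differed by 0.14 ± 0.21 (-0.29 to 0.57). The alarmin Il33 differed by -0.42 ± 0.20 (-0.83 to 0.00). Of 24 measured chemokine ligands, 5 were at an unadjusted p under 0.05 (20.8%, against 5.6% of all features), 1 higher and 4 lower, with a median of -0.06. Of 23 inflammatory cytokines and receptors, 1 was (median -0.02), and the member with the largest difference that is not in the panel was the bacterial sensor Tlr2 at -0.31 ± 0.13. Il6 was called at the high dose (1.01 ± 0.21, adjusted p = 0.0325).

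Acute phase and antibacterial genes of the panel gave no call. Saa3, the serum amyloid made in tissue, read -1.01, 0.62, -0.48, -0.79 and 0.19 with NM-401 and -0.28, -0.29, 0.27, 1.15 and 0.32 with Mitsui, a difference of -0.53 ± 0.46 (interval -1.49 to 0.43). Lcn2, an iron-scavenging defence protein, had the much tighter interval of -0.56 to 0.06 around -0.25. Fgg, the fibrinogen gamma chain, differed by 0.56 ± 0.44 (-0.35 to 1.46). In the acute phase list of 21 measured genes, 3 were higher and 3 lower at an unadjusted p under 0.05 (28.6%, against 5.6% of all features). Complement genes (18 measured) had a median of -0.10 with 1 lower, and Cfi, a complement inhibitor, stood at 0.38 ± 0.33.

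Airway mucus and type 2 genes of the panel gave no call, and Clca1 had the widest interval of the panel. Clca1, secreted by goblet cells, read 7.52, 7.75, 5.93, 1.73 and 7.02 with NM-401 and 8.94, 5.54, 8.13, 6.98 and 7.38 with Mitsui, against -0.08 to 0.34 in controls. NM-401 animal 4 stood between the controls and the other exposed animals. The difference was -1.41 ± 0.86 (interval -3.17 to 0.36) with that animal and -0.341 without it. Muc5b, a gel-forming mucin, differed by -0.30 ± 0.25 (-0.81 to 0.21), the anion exchanger Slc26a4 by 0.00 ± 0.19 (-0.39 to 0.40) and the chitinase-like Chil4 by -0.40 ± 0.41 (-1.25 to 0.44). In the type 2 and goblet list 4 of 27 measured members were lower at an unadjusted p under 0.05 (14.8%, against 2.5% of all features lower), and the median was -0.07.

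Remodelling, vessel and stress genes completed the panel. Timp1, the inhibitor of matrix proteases, read -1.39, -0.54, -1.28, -1.86 and -1.56 with NM-401 and between -1.01 and -0.82 with Mitsui. The 4 NM-401 animals other than animal 2 lay below every Mitsui animal, and the difference was -0.40 ± 0.16 (interval -0.74 to -0.06, adjusted p = 0.807 by limma). Esm1, a product of endothelial cells, read 1.54, 1.23, 1.66, 2.66 and 0.35 with NM-401 and 0.53, 0.42, 1.01, 0.88 and 0.53 with Mitsui, against 2.20 to 2.62 in controls. Its difference was 0.82 ± 0.29 (0.21 to 1.42) at the low dose and -0.83 at the high dose. Hmox1, haem oxygenase, differed by -0.27 ± 0.12 (-0.53 to -0.02), Cdkn1a, the p53 target that arrests the cell cycle, by -0.22 ± 0.16 (-0.54 to 0.11) and the neuropeptide Npy by 0.12 ± 0.33 (-0.56 to 0.79). Flt1, a receptor for vascular growth factor, differed by 0.07 ± 0.14 (-0.23 to 0.37) and Pdgfra, a growth factor receptor of fibroblasts, by 0.16 ± 0.13 (-0.11 to 0.43).

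**Figure D2:**
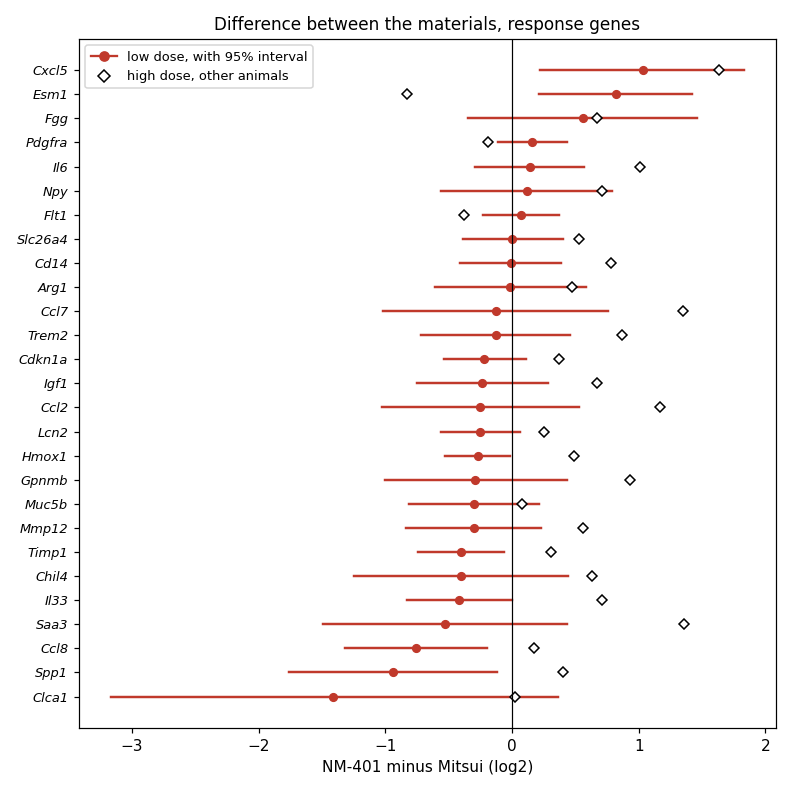
Difference NM-401 minus Mitsui (horizontal axis, log2) for the 27 measured response genes; filled points with lines are the low dose with its 95% interval, and open diamonds are the high dose in other animals. At the low dose the points run from -1.41 for Clca1 to 1.03 for Cxcl5, and the high-dose median of 0.56 lies on the other side of 0 from the low-dose median of -0.24.

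Of the 4 smallest p-values of the whole comparison, 3 belonged to genes of the endoplasmic reticulum stress response (Manf, Dnajb9 and Hspa5). This is the compartment where secreted proteins fold. When unfolded proteins build up there, the sensors of the unfolded protein response switch on its chaperones through a promoter element named ERSE. All 23 listed genes of this response were measured. Of them 14 were lower with NM-401 at an unadjusted p under 0.05 and 0 higher (60.9%, against 2.5% of all features lower), although none was called at an adjusted p under 0.05. The list median was -0.20, and 20 of 23 differences were below 0. The count of 14 was 9 without NM-401 animal 1 or without Mitsui animal 5, and 0 with median centring in place of loess, where the median remained below 0 at -0.16. In 6 members (Hspa5, Manf, Dnajb9, Xbp1, Herpud1 and Dnajb11) every NM-401 animal lay below every Mitsui animal, as in 0.501% of all features. Averaged over the list, the groups stood at -0.44 with NM-401, -0.25 with Mitsui and -0.48 in controls. Against control, 3 of the 23 members were called with NM-401 (16.9% of all features were) and 14 with Mitsui (20.9%).

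The promoters of some genes of the list carry the element. The 250 bases before each gene start were searched on both strands in RefSeq promoter windows (build GRCm38.p6) for ERSE, which is CCAAT and CCACG with 9 bases of any kind between them and stands in 0.113% of 32851 windows, and for the shorter ERSE-II, which is ATTGG and CCACG with 1 base between them and stands in 0.0304%. Of the 21 listed genes in that table, 7 had the first element and 1, Herpud1, the second. Of the members without overlap, only Hspa5 and Herpud1 were among these. No match was found for Dnajb9, Xbp1 or Dnajb11, and Manf has no window in that table. The next lines give stretches of 4 ERSE promoters (of Hsp90b1, the match nearer to the start) and of the ERSE-II promoter, gene strand, 5′ to 3′, with 25 bases on either side. Capitals mark the element, which may stand in either orientation. They are shown because these genes carry either element and had differences below 0. Calr, Derl3 and Dnajc3 also had ERSE and are not shown, so these lines do not tie the element to a direction.
Hspa5, chr2:34772000-34772068, plus strand: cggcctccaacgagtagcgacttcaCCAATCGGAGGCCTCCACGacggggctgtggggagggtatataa
Pdia6, chr12:17266466-17266534, plus strand: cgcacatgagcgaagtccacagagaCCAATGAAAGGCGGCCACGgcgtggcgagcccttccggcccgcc
Creld2, chr15:88819495-88819563, plus strand: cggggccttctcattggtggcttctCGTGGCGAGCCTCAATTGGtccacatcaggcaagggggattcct
Hsp90b1, chr10:86705508-86705576, minus strand: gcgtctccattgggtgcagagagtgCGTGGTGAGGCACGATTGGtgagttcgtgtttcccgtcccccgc
Herpud1, chr8:94386352-94386412, plus strand: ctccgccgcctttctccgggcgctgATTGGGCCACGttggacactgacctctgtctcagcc
A match is a string of letters and not a measured binding site.

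Manf, a secreted factor that protects cells under such stress, read -0.73, -0.54, -0.60, -0.69 and -0.71 with NM-401 and -0.23, -0.22, -0.29, 0.04 and -0.18 with Mitsui. The NM-401 animals overlapped the control range (-0.68 to -0.56) and the Mitsui animals lay above it. The difference was -0.48 ± 0.08 (interval -0.65 to -0.31, adjusted p = 0.0818 by limma). Hspa5, the main folding chaperone BiP, read -0.03, 0.29, 0.16, 0.16 and 0.32 with NM-401 and 0.64, 0.47, 0.45, 0.73 and 0.63 with Mitsui, a difference of -0.40 ± 0.07 (interval -0.56 to -0.25). Dnajb9, a co-chaperone, read 0.82 to 0.99 with NM-401 and 1.15 to 1.40 with Mitsui, a difference of -0.37 ± 0.07 (interval -0.51 to -0.23), and its second probe gave -0.18. For Dnajb9 it was the Mitsui animals that overlapped the control range (1.01 to 1.39).

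Other members had smaller differences of the same sign. Creld2, a chaperone of secreted proteins, differed by -0.34 ± 0.08, Herpud1, which helps to clear misfolded proteins, by -0.31 ± 0.09, and the protein disulphide isomerase Pdia6 by -0.25 ± 0.07. Xbp1, a transcription factor of the response, read 0.37 to 0.47 with NM-401 and 0.64 to 0.72 with Mitsui, a difference of -0.23 ± 0.06. Ddit3 and Atf4, transcription factors of the arm that slows translation, stood at 0.10 and 0.09. The list median was -0.17, -0.29, -0.18 and -0.23 within slides 1 to 4, of which slides 3 and 4 share Mitsui animal 5.

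At the high dose the order of the materials was the opposite in most of these genes. The list median was 0.16 there, although none was called. The sign of the low dose was seen in 6 of 23 members (48.6% of all features had it), among them Herpud1 at -0.15. The change of the material difference between the doses was tested as an interaction, which 7 features passed (0.0305% of all). Manf (0.70, adjusted p = 0.0332 by limma), Hspa5 (0.60, adjusted p = 0.038) and Dnajb9 (0.53, adjusted p = 0.038) were among the 7. In Hspa5 the NM-401 high animals read 0.50 to 0.64 and the Mitsui high animals 0.17 to 0.49, so Mitsui low and NM-401 high shared the upper level.

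**Figure D3:**
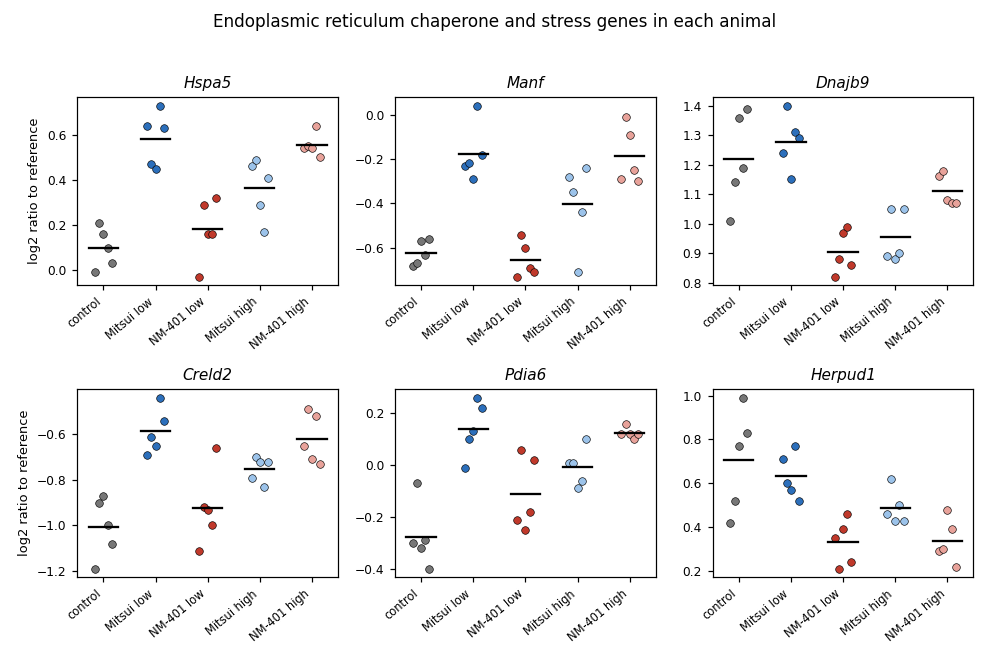
Log2 ratio to reference RNA (vertical axes) of 6 endoplasmic reticulum genes in each animal of the 5 groups; points are animals and bars group means. At the low dose the NM-401 points lie below the Mitsui points in Hspa5, Manf, Dnajb9 and Herpud1, and at the high dose the order is turned in Hspa5, Manf and Dnajb9.

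Among cytosolic heat shock genes the largest differences were below 0. The list that holds them, with the immediate early genes, had 15 of 23 differences above 0 and a median of 0.04. Hsph1, which helps to untangle aggregated proteins, read -1.18, -0.81, -0.99, -0.86 and -0.75 with NM-401 and -0.20, -0.51, -0.31, 0.12 and -0.05 with Mitsui, without overlap, a difference of -0.73 ± 0.16 (adjusted p = 0.268 by limma). Hspa8, the constitutive Hsp70, also had all NM-401 animals (-0.29 to 0.04) below all Mitsui animals (0.10 to 0.64), at -0.41 ± 0.11. Hspa1a, the inducible Hsp70, differed by -0.44 ± 0.19 and Hsp90aa1 by -0.26. At the high dose Hsph1, Hspa8 and Hspa1a stood above 0, at 0.11, 0.28 and 0.64. Of the 23 measured genes, 4 were lower and 1, Klf4, higher at an unadjusted p under 0.05 (21.7%, against 5.6% of all features). The early response genes Fos, Jun and Egr1 stood at 0.28, 0.26 and 0.17.

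Circadian clock genes held the largest difference among genes well above background in all 10 animals, and their order was the same at both doses. The clock is a feedback loop in which Arntl drives the Per, Nr1d and PAR bZIP genes (Dbp, Tef and Hlf), which are repressed again later in the day, so that Arntl and Dbp peak at opposite times. Of 18 measured members of the list, 7 were lower and 2 higher with NM-401 at an unadjusted p under 0.05 (50%, against 5.6% of all features), none was called at the low dose, and 7 did not overlap between the groups, which 1.26% of all features did. With median centring 3 of the 18 were at an unadjusted p under 0.05. In the high-dose animals 7 of the 18 were called, 5 lower and 2 higher (0.793% of all features were called). The sign of the low dose was seen in 15 of the 18 (48.6% of all features had it). The 2 doses share no animal, but the list was known to differ when it was chosen.

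Dbp, the output gene of the clock with the widest daily swing, read -2.45, -3.05, -2.04, -1.97 and -2.65 in the NM-401 animals and -0.84, -0.90, -0.54, 0.01 and -0.37 in the Mitsui animals. Every NM-401 animal lay below every Mitsui animal, by a mean of 1.91 on the log2 scale (-1.91 ± 0.36, interval -2.65 to -1.16), a 3.75-fold ratio of means, with adjusted p = 0.099 by limma. A second Dbp probe gave -1.86. Controls were spread from -3.05 to -0.67, over all NM-401 values and the lowest 2 of the Mitsui values, and Mitsui was called above control (1.45, adjusted p = 0.00549). At the high dose the NM-401 animals read -1.75, -2.36, -1.22, -3.03 and -1.72 and the Mitsui animals 0.02, -0.06, 0.90, 0.30 and 0.13, a difference of -2.27 ± 0.36 (adjusted p = 0.00833).

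Per3, a period gene, read -0.73, -0.53, -0.56, -0.56 and -0.54 with NM-401 and -0.20, -0.24, -0.10, 0.13 and 0.13 with Mitsui, without overlap. Its difference was -0.53 ± 0.12 at the low dose and -0.58 ± 0.12 at the high dose, where it was called (adjusted p = 0.0325 by limma). Its RefSeq promoter window holds the D-box TTATGTAA, the element that Dbp, Tef, Hlf and Nfil3 bind, at 2 places. This is shown because Per3 was the only 1 of the 15 listed clock genes in the table to have it, and 0.819% of all windows do, counting either strand. Other elements were searched in the same way. The E-box CACGTG stood in 3 of the 15 clock genes (6.02% of all windows). A sterol element stood in 1 of 18 cholesterol and fatty acid genes (1.05%), and a heat shock element in 1 of 17 immediate early and heat shock genes (0.466%).
Per3, chr4:151044791-151044848, minus strand: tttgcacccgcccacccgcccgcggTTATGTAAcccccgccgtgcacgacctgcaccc
Per3, chr4:151044838-151044895, minus strand: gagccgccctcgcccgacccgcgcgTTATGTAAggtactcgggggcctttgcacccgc
Capitals mark the D-box.

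The remaining clock genes of note were named after their values were seen, other than Nr1d1. Nr1d1 and Nr1d2, the Rev-erb repressors, differed by -1.0 ± 0.32 and -0.76 ± 0.19, both without overlap. Nr1d1 read -0.51, -1.01, -0.29, -0.10 and -0.68 with NM-401 and 0.35 to 0.61 with Mitsui. Arntl, the activator that they repress, was on the other side of 0: it read 0.64, 0.65, 0.94, 1.05 and 0.81 with NM-401 and 0.39, 0.43, 0.45, -0.10 and 0.27 with Mitsui, a difference of 0.53 ± 0.14 (0.89 at the high dose, adjusted p = 0.00833 by limma). Nfil3, a repressor at the D-box, differed by 0.29 ± 0.10 at the low and 1.00 ± 0.10 at the high dose (adjusted p = 7.79e-06). Tef differed by -0.49 ± 0.14 and -0.96 ± 0.14 (adjusted p = 0.0031), and Per1 by -0.64 ± 0.23 without overlap. Clock itself stood at 0.06 ± 0.14. The time of day of collection is not in the labels, so the part of material and of collection time in these values cannot be told apart.

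**Figure D4:**
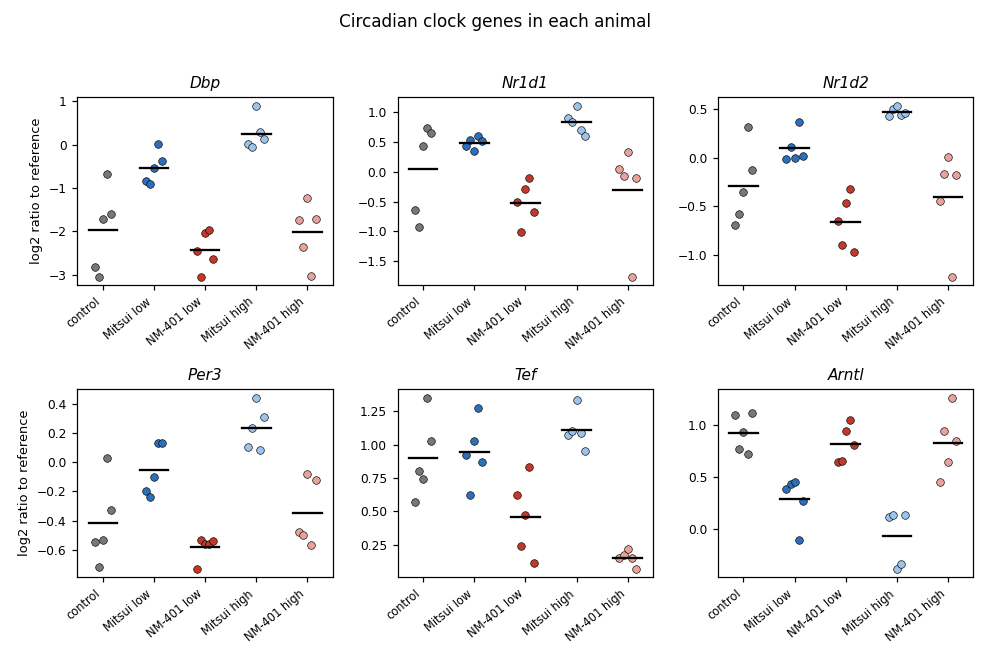
Log2 ratio to reference RNA (vertical axes) of 6 clock genes in each animal of the 5 groups; points are animals and bars group means. In Dbp, Nr1d1, Nr1d2 and Per3 the NM-401 low points lie below all Mitsui low points, in Arntl above them, and in Dbp the controls overlap all NM-401 low points and 2 of the 5 Mitsui low points.

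Genes of cholesterol synthesis formed the list with the lowest median. Of 27 measured genes, 13 were lower with NM-401 at an unadjusted p under 0.05 and 0 higher (48.1%, against 2.5% of all features lower). Of the 27 differences 25 were below 0, and the median was -0.29 (-0.26, -0.09, -0.40 and -0.58 within slides 1 to 4). Mitsui animal 5 enters both of the lowest values, those of slides 3 and 4. The list mean was 0.14 with NM-401, 0.40 with Mitsui and 0.05 in controls. No member was called, and only 1, Cyp51, did not overlap between the groups (1.26% of all features did not). Without Mitsui animal 5 the count was 6 in place of 13, and with median centring it was 0. Cyp51, which removes a methyl group from lanosterol, read -1.22, -0.88, -1.19, -1.06 and -0.89 with NM-401 and -0.76, -0.79, -0.73, -0.78 and -0.43 with Mitsui, without overlap, a difference of -0.35 ± 0.10 (adjusted p = 0.414 by limma). Insig1, the sterol-regulated brake on the pathway, differed by -0.36 ± 0.09, the early enzymes Idi1 and Mvd by -0.51 ± 0.17 and -0.42 ± 0.13, and Lss by -0.40 ± 0.13. Of the fatty acid enzymes in the list, Fasn stood at -0.18 and Acaca at -0.03. The list median was -0.07 at the high dose.

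Surfactant is rich in lipid, and alveolar type 2 cell genes also had more members below 0 than above. Of 26 measured, 6 were lower and 0 higher at an unadjusted p under 0.05 (23.1%, against 2.5% of all features lower). Of the 26 differences 23 were below 0 (median -0.20), and 1 member did not overlap between the groups (1.26% of all features did not). The mean over the list was 3.90 to 4.25 in NM-401 animals and 4.22 to 4.29 in Mitsui animals, and controls lay at 3.64 to 3.78. After the alarmin Il33, also made by these cells, the largest difference was that of Slpi, a secreted protease inhibitor, at -0.38 ± 0.18. At the high dose the list median was 0.10, and 9 of the 26 members had the sign of the low dose (48.6% of all features did). In bulk tissue, fewer cells of a type and less RNA per cell cannot be told apart. Alveolar type 1 markers (16 measured) had a median of -0.07 with Igfbp2 at -0.30 ± 0.18. Transitional repair genes (18) had a median of -0.04 with Sfn at -0.17 ± 0.11, club cell and airway genes (17) of -0.16, and ciliated cell genes (19) of -0.09.

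Genes of B cells lay above 0 with NM-401. Of 17 measured genes, 5 were higher and 0 lower at an unadjusted p under 0.05 (29.4%, against 3.1% of all features higher), 15 of 17 differences were above 0, and the median was 0.24 (0.01 at the high dose). The count of 5 was 3 without Mitsui animal 4 and 0 with median centring. In 6 genes, among them Cd79b, Fcrla, Tnfrsf13c, Cxcr5 and Pou2af1, every NM-401 animal lay above every Mitsui animal, as in 0.762% of all features. Fcrla, of germinal centre B cells, read 1.95, 2.15, 2.04, 1.83 and 2.02 with NM-401 and 1.72, 1.37, 1.68, 1.32 and 1.25 with Mitsui, a difference of 0.53 ± 0.17 (adjusted p = 0.63 by limma). Its controls ranged from 1.76 to 2.58, above all Mitsui animals. This did not hold for Cd79b, whose controls (-0.32 to 1.23) spanned the Mitsui animals (0.23 to 0.56). The mean over the list was 0.51 to 0.85 with NM-401, 0.32 to 0.54 with Mitsui and 0.14 to 0.96 in controls. Jchain, which joins antibody molecules in plasma cells, stood at 0.08.

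Lists of other immune cells gave no call. Ccr7, the receptor that guides dendritic cells and lymphocytes to lymph nodes, read 3.51 to 4.05 with NM-401 and 2.84 to 3.36 with Mitsui, without overlap, at 0.56 ± 0.17 (adjusted p = 0.504 by limma), and Clec9a of cross-presenting dendritic cells stood at 0.40 ± 0.17. Over the 17 measured dendritic, mast and eosinophil genes 3 were higher at an unadjusted p under 0.05 (17.6%, against 3.1% of all features higher) and the median was 0.00. Siglecf, a marker of resident alveolar macrophages and eosinophils, read 3.89, 3.55, 3.75, 3.76 and 3.15 with NM-401 and 2.85, 3.88, 3.31, 2.93 and 2.40 with Mitsui, with overlap and a difference of 0.55 ± 0.19, while the scavenger receptor Marco stood at -0.67 ± 0.47. Macrophage and monocyte markers (19 measured) had a median of -0.07 with 1 higher and 1 lower (10.5%, against 5.6% of all features). T and natural killer cell genes (25) and neutrophil genes (16) had 0 at an unadjusted p under 0.05, with medians of 0.04 and -0.07. For T cell genes all 25 intervals lay within 2-fold, and 14 of 16 neutrophil intervals did.

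Interferon-stimulated genes differed between animals more than between materials. All 36 measured members had a difference above 0 (median 0.33, 0.84 at the high dose), yet 0 were at an unadjusted p under 0.05 and 0 were called by limma, and only 11 of the 36 intervals lay within 2-fold. The median was 0.137, 0.17 and 0.203 without NM-401 animals 5, 3 and 4, and 0.16 without Mitsui animal 2. It was 0.54 and 0.58 without NM-401 animals 1 and 2, and 0.559 without Mitsui animal 4. The mean over the list was 0.69 and 0.61 in NM-401 animals 1 and 2 and 2.26, 2.15 and 2.37 in animals 3, 4 and 5. In the Mitsui animals it was 1.40, 0.58, 1.09, 2.33 and 1.05, and in controls 0.14 to 0.55. Irf7, a transcription factor that amplifies the interferon response, read -0.82, -1.09, 1.90, 1.80 and 1.88 with NM-401 and 0.56, -1.25, 0.11, 2.20 and -0.55 with Mitsui. Isg15, a ubiquitin-like interferon product, differed by 0.55 ± 0.65 (interval -0.80 to 1.90) and Ifi27l2a by 0.63 ± 0.78. Within slides the list median was 0.90, -1.62, 1.52 and 1.07. Slide 2 holds NM-401 animals 1 and 2. Antigen presentation genes (20 measured) had a median of 0.07, led by Nlrc5, the activator of class I genes, at 0.50 ± 0.35.

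Transcripts typical of liver stood out in the same 3 NM-401 animals and in 2 Mitsui animals. Ambp, a liver plasma protein, read -0.36, 0.39, 5.04, 6.74 and 2.92 with NM-401 and 2.61, 0.25, -0.01, 0.20 and 3.66 with Mitsui. Alb, albumin, read 0.24, 1.82, 4.61, 4.71 and 3.72 and 3.54, 1.82, 0.91, 1.54 and 4.29. Fgb and Hpx, liver acute phase genes, followed the same animals, with differences of 1.15 ± 0.82 and 1.02 ± 0.57, and Apoa1 at 1.06 ± 0.51. Mitsui animal 4, with the highest interferon mean of its group, had Ambp at 0.20. The labels say that lung, liver and heart were taken from each mouse. The part of liver RNA in the acute phase values of these animals was not tested. Over the whole list of markers of other tissues (17 of 25 measured) the mean was 0.15 to 1.83 in NM-401, 0.29 to 1.15 in Mitsui and 0.37 to 1.49 in control animals, with Ins2 of pancreas at a difference of 0.01.

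Markers of other neighbouring tissue varied without a call. Cardiac muscle markers (23 measured) had a median of -0.21 and a list mean of -0.17 to 1.37 with NM-401, -0.08 to 2.05 with Mitsui and 0.22 to 2.12 in controls, with Myh6 at -0.62 ± 0.78 and Myl7 at -0.56 ± 0.69. Mesothelial markers (18) had a median of -0.10, with Upk3b at -0.32 ± 0.25, and red blood cell transcripts (11) of -0.01.

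Structural genes of the lung gave no call at this dose. Extracellular matrix genes (38 measured) had a median of -0.06 with 2 lower at an unadjusted p under 0.05 and all 38 intervals within 2-fold. Col3a1, a fibrillar collagen, read -0.08, 0.11, -0.25, -0.63 and -0.37 with NM-401 and -0.10, 0.33, 0.23, -0.26 and 0.30 with Mitsui, a difference of -0.34 ± 0.13 (interval -0.61 to -0.07). Profibrotic signalling genes (31) had 0 at an unadjusted p under 0.05 and a median of 0.03. Fibroblast and smooth muscle markers (25) had a median of 0.07, with the lung fibroblast factor Tcf21 at 0.34 ± 0.15, and endothelial markers (27) of 0.07.

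Serpinh1, the collagen chaperone Hsp47, is given because of its values and was chosen after they were seen. It read -1.54, -1.55, -1.52, -1.42 and -1.39 with NM-401 and -1.25, -0.03, -0.47, -0.53 and 0.22 with Mitsui, without overlap, at -1.07 ± 0.26 (adjusted p = 0.323 by limma). NM-401 was below the control range of -0.57 to 0.16.

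Genes of DNA damage, the subject of the series title, gave no call and had narrow intervals. Of 50 measured DNA repair and damage signalling genes, 2 were higher and 2 lower at an unadjusted p under 0.05 (8%, against 5.6% of all features). The median was 0.02, and 49 of 50 intervals lay within 1.5-fold. The exception was Fanca, of the Fanconi anaemia pathway that repairs crosslinks, which read -1.75, -2.58, -2.37, -1.92 and -2.22 with NM-401 and -1.41, -1.74, -1.23, -1.50 and -1.38 with Mitsui. Its groups did not overlap, with a difference of -0.72 ± 0.21 (interval -1.16 to -0.27, adjusted p = 0.49 by limma) and -0.23 at the high dose. Mutyh, a glycosylase that removes adenine opposite oxidised guanine, stood at 0.25 ± 0.10. Of 30 p53 targets, 1 was higher and 3 lower (13.3%), with the kinase Plk2 at 0.36 ± 0.12 and the cyclin Ccng1 at -0.26 ± 0.10, and 28 intervals lay within 1.5-fold. Mitotic and S-phase genes (39) had 4 lower (10.3%, against 2.5% of all features lower), a median of -0.12 and 34 of 39 differences below 0. Cdc20, an activator of anaphase, stood at -0.45 ± 0.16.

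Oxidant, metal and energy genes gave no call. NRF2 targets and antioxidant genes (38 measured) had a median of -0.06 and 34 intervals within 1.5-fold, with the glutathione transferase Gsta3 at 0.45 ± 0.19. Metallothionein and iron genes (20) had 5 lower at an unadjusted p under 0.05 (25%, against 2.5% of all features) and a median of -0.12. Mt2, a metal-binding protein, read -2.01, -1.71, -2.52, -2.85 and -2.20 with NM-401 and -1.64, -1.11, -1.57, -2.37 and -2.10 with Mitsui, at -0.50 ± 0.19. Cytochrome P450 and xenobiotic enzymes (21) had a median of -0.10, with Cyp2e1 at 0.77 ± 0.55. All 38 respiratory chain genes had intervals within 1.5-fold, with a median of -0.05.

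The other genes with the smallest p-values belonged to no single list. Tex11, a gene of meiosis, read -0.05, -0.29, -0.65, -0.46 and -0.43 with NM-401 and 0.29, 0.57, 0.60, 0.42 and 0.68 with Mitsui, without overlap, at -0.89 ± 0.16 (adjusted p = 0.0818 by limma) and -0.44 at the high dose. Over the 25 animals Tex11 was among the features most like the clock gene Dbp (Pearson r = 0.794). A part of collection time in its values was not tested. Ets1, a transcription factor of lymphocytes and endothelium, read 2.11, 1.96, 2.10, 1.67 and 1.94 with NM-401 and 1.30 to 1.49 with Mitsui, at 0.60 ± 0.13 (adjusted p = 0.268) and -0.10 at the high dose. Fkbp5, a co-chaperone that glucocorticoids induce, read -2.07 to -1.78 with NM-401 and -1.70 to -1.38 with Mitsui, at -0.42 ± 0.10. Higher with NM-401 in mean were Tipin, of the replication fork (0.54 ± 0.13), Plpp3, a lipid phosphatase (0.43 ± 0.10), Acbd4 (0.42 ± 0.10), the mRNA exporter Nxf1 (0.35 ± 0.08), Phf7 (0.34 ± 0.08), the kinase scaffold Mapk8ip3 (0.32 ± 0.07), the exonuclease Xrn2 (0.31 ± 0.07), the autophagy gene Wdr45 (0.27 ± 0.06) and Sltm (0.26 ± 0.06). 2810004N23Rik stood at -0.58 ± 0.13. Among the genes named by rule, 22 had other probes (24 in all), 0 of opposite sign and 13 with a difference over 1.5 times smaller. Among these were 0.23 for Ets1, 0.05 for Mapk8ip3, 0.22 for Acbd4, 0.28 for Siglecf, -0.05 for Mmp12, -0.10 for Hmox1, -0.09 for Igf1 (both of its other probes), -0.20 for Lpl, 0.21 for Nlrc5 and -0.15 for Myh6. Of the 20 named genes with the smallest p, 6 had the same sign at the high dose (48.6% of all features did). Of the 20, 2, Dbp and Per3, were called there (0.793% of all features were).

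**Figure D5:**
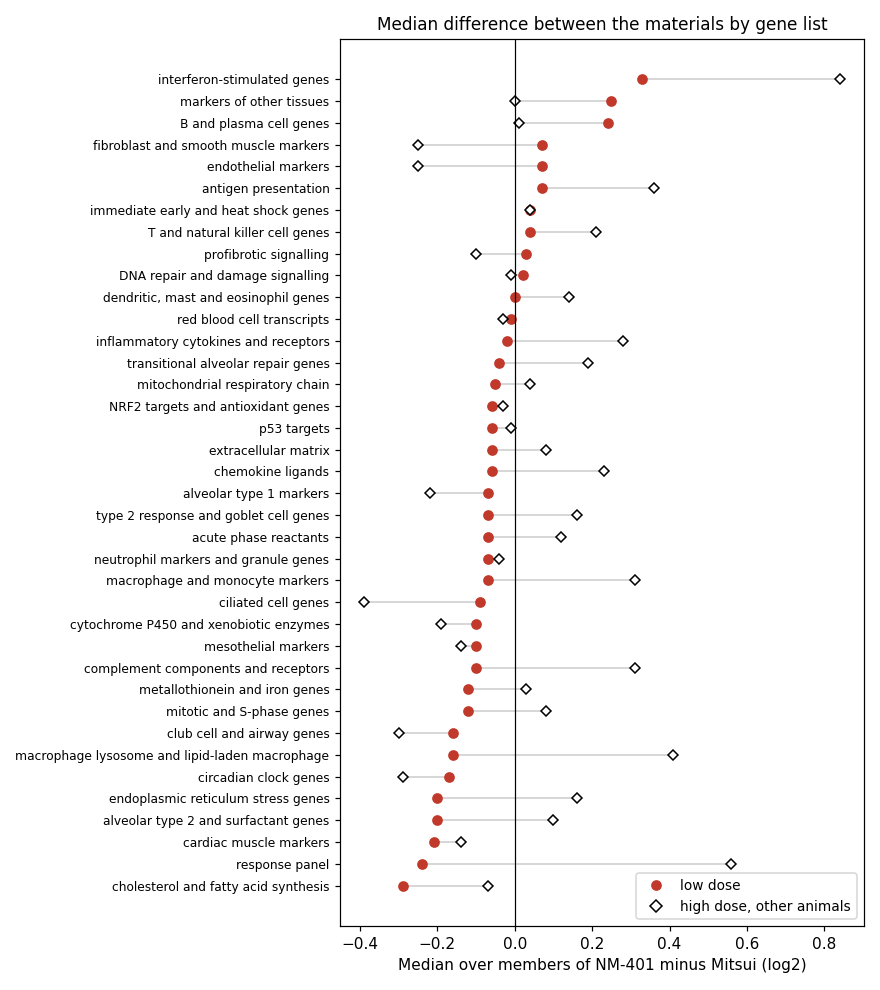
Median over the measured members of each of 38 gene lists of the difference NM-401 minus Mitsui (horizontal axis, log2), with filled points for the low dose and open diamonds for the high dose in other animals. Low-dose medians run from -0.29 for cholesterol and fatty acid synthesis to 0.33 for interferon-stimulated genes, and the lists of the endoplasmic reticulum, the response panel and macrophage lysosomes lie on opposite sides of 0 at the 2 doses.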

How the data were processed

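Gene expression was measured on 26 two-colour Agilent mouse arrays from 25 animals, with lung RNA in Cy5 and reference RNA in Cy3. Per the file headers, Agilent Feature Extraction 11.0.1.1 read each array, and the deposited files hold median spot and background intensity values, a log10 ratio of Cy5 over Cy3 and flags for outlier, saturated and above-background spots. The authors also deposited a table of log2 ratios, whose normalization is not given in the sources used here. It was used as an alternative only.

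The intensities were corrected by normexp (offset 50) and normalized within arrays by loess in limma 3.58.1 (R 4.3.3). Outlier spots (0.461%) were left out. Probes were kept when well above background in Cy5 in at least 4 animals of a group, which left 30481 of 55681 probes, and the brightest probe stood for each gene. Symbols came from RefSeq accessions through a GRCm38.p6 table, while the array was annotated on mm9, so no coordinates were taken from the arrays. Both arrays of Mitsui animal 5 were averaged. The limma model had 5 group means over 25 animals (20 residual degrees of freedom) and no block, and p-values were adjusted by Benjamini-Hochberg over 22963 features. The number of arrays limits the precision. A missing spot was left out of its gene's fit (60 features). The labels name animals as replicates. The procedure was tested on simulated data.

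The comparison, the gene lists and the genes were chosen with earlier results of these data known. Named by rule were the 20 genes with the smallest p, up to 2 uncalled members of each list with the largest difference, and the response panel. Genes named in addition were chosen after their values were seen. The alternatives were other background corrections, normalizations, filters, probe rules, fits and blocks, and leaving out each animal. Replicate numbers did not pair the animals.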

Additional observations from a re-analysis of the deposited data

Results flagged for a closer look

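Among 135 genes named, each low-dose group of 5 animals was examined for an animal far from its nearest neighbour relative to the group's range, and 12 of 270 groups (4.44%) had one, where chance gives about 5%. In NM-401 animal 1 these were Per3 at -0.73 (others -0.56 to -0.53), the endothelial cadherin Cdh5 at 0.34 (others 5.90 to 6.24) and the haemoglobin chain Hbb-bs at 0.42 (others 6.79 to 7.09). In other NM-401 animals they were the cholesterol enzyme gene Mvd in animal 2 at -0.50, Hspa1a in animal 4 at 0.55, the spindle gene Tpx2 in animal 5 at -1.42 (others -3.89 to -3.41) and Gm15772 in animal 5 at -1.82 (others -0.09 to 0.10). In Mitsui animals they were the caveolin Cav1 in animal 1 at 1.90, Trim12a in animal 1 at -0.92 (others 3.83 to 4.80), and, in animal 5, Cyp51 at -0.43, Spp1 at 0.86 and Gm15772 at -2.62. That Gm15772 value is the mean of 2 arrays that differed by 1.27.

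The difference between the materials itself differed between the doses in 7 features by limma's interaction test, 6 of them with a symbol. That test contains the low-dose difference, so it is not separate from the low-dose values. The change from low to high dose in NM-401 minus Mitsui was -4.36 for Gm15772 (adjusted p = 0.0125), 0.70 for Manf (adjusted p = 0.0332), -0.69 for Dock6 (adjusted p = 0.0335), 0.53 for Dnajb9, 0.60 for Hspa5 and 0.91 for the annexin Anxa4 (adjusted p = 0.038 for each of these 3).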

How the results depend on the processing

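No gene was called in 21 of 24 alternatives. The count was 1 with Feature Extraction log ratios (Manf, adjusted p = 0.0446 by limma), 1 in the fit of only the 10 low-dose animals (Dbp, adjusted p = 0.0467, also the 1 call of at least 1.5-fold) and 2 with array weights. It was 0 without each animal in turn. Features at an unadjusted p under 0.05 numbered 63 with median centring (median SE 0.309), 1980 with the slide block, 2134 with array weights, and 966 to 1815 without 1 animal. The replicate block gave 0 calls and 1287 such features. Same-numbered animals had correlations of -0.108 to 0.131, so numbers did not pair them. With 0 calls, the share of low-dose calls with the same sign at the high dose has no value.

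Of 135 genes compared, 124 kept their sign throughout, as did 24 of 38 list medians. The sign turned in 11 genes with differences near 0 or resting on 1 animal. Npy was -0.0689 with array weights. Arg1 was 0.0358 with no background subtraction, 0.00309 with median centring, 0.0177 in the authors' deposited ratios, 0.0315 with the slide block and 0.00942 from the first array of the repeated animal. Cd14 was 0.0178 with Feature Extraction ratios, 0.000105 with no background subtraction, 0.0318 with median centring and 0.0834 with the slide block. Slc26a4 was -0.0538 with Feature Extraction ratios, -0.00558 with the slide block, -0.0404 from the second array and -0.0398 with array weights. Without 1 animal the ranges were -1.63 to 0.0424 for Hbb-bs, -0.0969 to 0.521 for Tpx2, -1.06 to 0.00526 for Myh6, -0.513 to 0.0377 for Ccl2, -0.00994 to 0.16 for Flt1, -0.286 to 0.0431 for Trem2, -0.149 to 0.384 for Npy, -0.374 to 0.167 for Ccl7, -0.156 to 0.0838 for Arg1, -0.158 to 0.121 for Cd14 and -0.136 to 0.156 for Slc26a4.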

Other observations

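In a few genes the animals fell into higher and lower values with a gap between them, and these genes were chosen after their values were seen. Trim12a, a gene of the tripartite motif family of antiviral factors, read -0.66, -0.68, -0.79, 0.37 and -0.41 in the NM-401 animals and -0.92, 3.83, 3.86, 4.44 and 4.80 in the Mitsui animals. It was well above background in 1 of 5 NM-401 and 4 of 5 Mitsui animals. Trim34a, of the same family, read -0.13, -0.31, -0.26, 0.39 and 0.06 and -0.33, 2.82, 3.28, 3.68 and 4.13, and was well above background in 2 of 5 NM-401 and 4 of 5 Mitsui animals. Neither was called by limma, and no size of difference is given, because most NM-401 animals were not well above background.

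Gm15772 read 0.10, 0.07, -0.02, -0.09 and -1.82 with NM-401 low and -2.12, -1.93, -2.10, -1.97 and -2.62 with Mitsui low. The last value is the mean of the 2 arrays of Mitsui animal 5, which differed by 1.27 for this gene. At the high dose the levels were the other way round, at -3.32 to -2.01 with NM-401 and -0.14 to 0.16 with Mitsui. Controls held both levels, at 0.07, 0.13, -1.86, -3.07 and -1.87.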
